A study of Mus musculus with 3 samples.

Results

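The cholesterol synthesis and sterol sensing genes described here are 27 of the 32285 genes in the deposited tables, chosen by gene symbol: 20 enzymes that lead from acetyl-CoA to cholesterol and to its isoprenoid side products, 6 genes of the sterol-sensing machinery, and Stard4, a carrier of cholesterol through the cytosol. They were followed in single cells of mouse colon, captured with 10x Genomics 3' v3 reagents, which count unique molecular identifiers (UMIs), 1 for each captured transcript end. The series holds 3 libraries, and each group has 1: PBS, which the design text places among germ-free mice, and germ-free mice that had been colonized with BT WT or with BT mutant. The sources used here do not expand BT, do not say what the mutant lacks, and give no strain, sex, age or number of animals. With 1 library a group there is no test between groups. A difference between libraries cannot be told apart from one between animals, stretches of colon or cell preparations, and the 95% intervals given below cover counting error only.

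Cells build cholesterol from acetyl-CoA by way of mevalonate, isoprenoid units, squalene and lanosterol, and the same isoprenoid units feed protein prenylation, ubiquinone and dolichol. The pathway is governed by the transcription factor SREBP2, the product of Srebf2. When membranes of the endoplasmic reticulum hold little sterol, Scap escorts SREBP2 to the Golgi, where the proteases encoded by Mbtps1 and Mbtps2 release its active part, which switches on most genes of the pathway. When sterol is plentiful, Insig1 and Insig2 hold Scap back. Insig1 is itself a target of SREBP2, whereas Insig2 is not known as one in most cells, and the colon epithelium both makes cholesterol and takes it up.

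The promoter of Hmgcs1 is shown because it holds the sterol regulatory element spelled out below. Those of Insig1 and Insig2 were chosen by name. Hmgcs1 stands at the entry of the pathway and differed between the libraries, as Insig1 did, while Insig2 did not in colonocyte-like cells. Of the 27 genes, 23 matched RefSeq promoter windows (GRCm38.p6, 250 bases before to 50 after a start), and Fdps, Fdft1, Sqle and Stard4 did not. In these windows 4 motifs were searched on both strands: the sterol regulatory element TCACNCCAC, the NF-Y box CCAAT, the Sp1 box GGGCGG and the E-box CACGTG. Each line gives the bases before the start, 5' to 3' on the gene's strand, with the motif matches in capitals. The Insig1 line holds 201 bases and each of the others 250.
Hmgcs1, chr13:119690101-119690350, plus strand: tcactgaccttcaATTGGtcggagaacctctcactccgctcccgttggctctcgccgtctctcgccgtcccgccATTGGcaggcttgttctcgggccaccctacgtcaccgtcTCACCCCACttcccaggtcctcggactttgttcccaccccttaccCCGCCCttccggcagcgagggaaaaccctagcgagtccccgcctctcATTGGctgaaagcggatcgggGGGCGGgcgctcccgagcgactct
Insig1, chr5:28071162-28071362, plus strand: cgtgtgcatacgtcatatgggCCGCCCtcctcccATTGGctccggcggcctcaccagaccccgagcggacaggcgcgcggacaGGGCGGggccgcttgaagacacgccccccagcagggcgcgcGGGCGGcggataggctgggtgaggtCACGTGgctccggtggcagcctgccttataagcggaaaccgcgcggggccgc
Insig2, chr1:121332590-121332839, minus strand: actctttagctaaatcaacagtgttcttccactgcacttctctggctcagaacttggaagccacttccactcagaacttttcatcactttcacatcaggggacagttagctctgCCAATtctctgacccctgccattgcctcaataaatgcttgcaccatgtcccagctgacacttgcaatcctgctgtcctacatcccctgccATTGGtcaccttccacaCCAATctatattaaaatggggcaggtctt
Hmgcs1 was the 1 gene of the 23 with the sterol regulatory element as spelled here, which 1.44% of all 27025 genes with a window held. The CCAAT box was in 19 of the 23, against 41.1% of all genes, and the Sp1 box in 20 of the 23, against 38.2%. The E-box was in 5 of the 23 (Hsd17b7, Sc5d, Dhcr7, Scap and Insig1), against 8.09%. Insig2, shown by 1 of its 3 windows, held 3 CCAAT boxes and no other match in the bases printed. No match says only that these letters are not in the window.

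The PBS, BT WT and BT mutant files held 4425, 8829 and 8195 barcodes and 42003444, 55436776 and 54943483 UMIs. Barcodes with at least 300 genes and at most 25% mitochondrial UMIs were kept, which left 3198, 7070 and 6138 cells with median depths of 3672, 3845 and 3355 UMIs. Between 6 and 13 barcodes were shared by any pair of libraries. The 27 genes took 0.116%, 0.0866% and 0.0906% of the UMIs of kept cells. Cells were clustered without the 27 genes and named from marker genes; colonocyte-like cells (19 of 20 markers in at least 10% of cells) numbered 639, 3271 and 3116, with median depths of 4540.0, 3951 and 3299 UMIs. The UMIs of each class and library were added up and given as counts per 1e6 UMIs of that sum (CPM). A gene is called higher or lower when its ratio reached 1.5-fold with at least 20 UMIs in the 2 sums of colonocyte-like cells. In the other classes, and in pools of clusters within colonocyte-like cells, it also needed at least 30 UMIs and an interval excluding 1.

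In colonocyte-like cells, which line the surface of the colon and absorb salt and water, most enzymes of the pathway were lower in BT WT than in PBS, from the entry enzyme Hmgcs1 to the late sterol enzymes Msmo1 and Ebp. The 20 enzymes summed to 1118 CPM in PBS (1097 to 1139.6), 429 in BT WT (419 to 438) and 631 in BT mutant (621 to 642). Of the 27 genes 16 were called lower in BT WT than in PBS, where 15.2% of the 11735 genes tested were, and these 16 were 15 enzymes and Insig1. Called higher were Scap and Mbtps1, 2 of 27, against 37.3% of all genes. The median log2 ratio of CPM + 10 was -0.61 over the 27 genes and -0.89 over the enzymes, beside 0.12 over all genes tested. The clusters that made up the class differed between libraries: in PBS 543 of its 639 cells came from clusters 9 and 0.0, led by Gsta1, Apoc2 and Guca2b, while in BT WT 3001 of 3271 came from clusters 3, 21 and 22, led by Cyp2d12, Ifit1bl1 and Slc13a1. No cluster of the class held 50 cells of PBS and 50 of a colonized library.

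**Figure D1:**
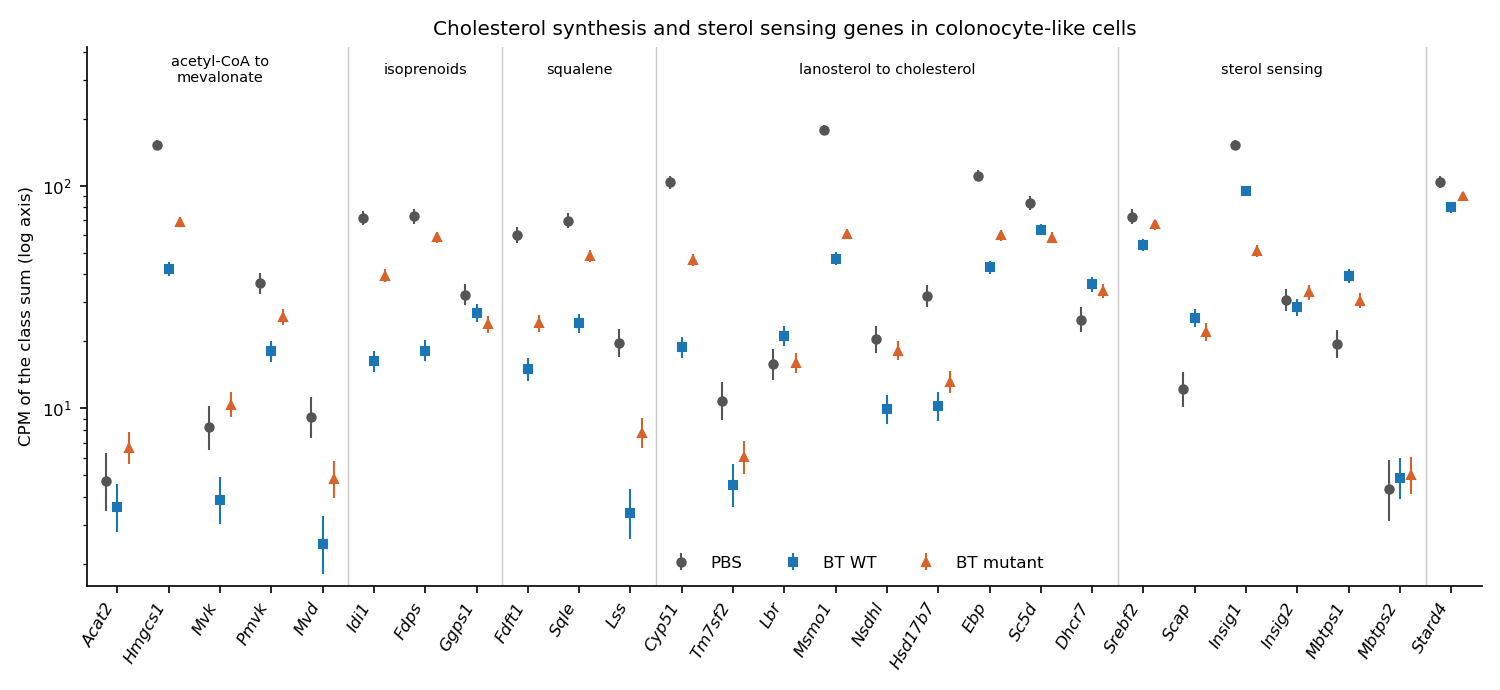
Level of each of the 27 genes in the sum of colonocyte-like cells of the 3 libraries, in CPM on a log axis, ordered by role; points are single libraries and vertical lines exact Poisson 95% intervals. Most enzymes, such as Hmgcs1 at 152, 42.5 and 69.1 CPM, run from PBS at the top to BT WT at the bottom with BT mutant between them, while Insig1 is lowest in BT mutant.

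The early enzymes turn acetyl-CoA into mevalonate and activate it. Hmgcs1, which makes HMG-CoA, stood at 152 CPM in PBS, 42.5 in BT WT and 69.1 in BT mutant. PBS was highest and BT WT lowest: BT WT was 3.59-fold below PBS (3.29 to 3.92) and BT mutant 1.63-fold above BT WT (1.49 to 1.78). Mvk, mevalonate kinase, read 8.24, 3.88 and 10.4 CPM in PBS, BT WT and BT mutant. BT WT alone was low, 2.12-fold under PBS and with BT mutant 2.68-fold over it. Pmvk, which adds the next phosphate, was at 36.4, 18.1 and 25.7 CPM, 2.01-fold lower in BT WT than in PBS. Mvd, the decarboxylase that ends this stretch, was at 9.17, 2.46 and 4.82 CPM. It lay 3.72-fold lower in BT WT than in PBS (2.57 to 5.45). Acat2, the cytosolic thiolase that starts the route, was scarce in these cells at 4.74, 3.61 and 6.64 CPM. BT mutant was 1.84-fold over BT WT, the interval for BT WT over PBS included 1, and the count is uncertain because a near copy, Acat3, lies in the same genome.

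Isoprenoid enzymes followed the same order with 1 exception. Idi1, the isomerase of the 5-carbon units, was at 71.8 CPM in PBS, 16.3 in BT WT and 39.4 in BT mutant. BT WT was 4.42-fold lower than PBS (3.85 to 5.08), and BT mutant was 2.43-fold above BT WT (2.13 to 2.78). Fdps, which joins these units to farnesyl diphosphate, was at 72.8, 18.2 and 58.8 CPM. It had the widest gap of the 27 genes between the colonized libraries: BT mutant was 3.24-fold above BT WT (2.87 to 3.66) and 1.24-fold under PBS. Fdps overlaps the coding gene model Gm43738 on its strand, so part of its count could belong there. Ggps1, which draws farnesyl diphosphate off to geranylgeranyl diphosphate for prenylation, was at 32.4, 26.8 and 23.9 CPM. No pair of libraries differed 1.5-fold for it.

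The squalene enzymes make and close the sterol skeleton. Fdft1, squalene synthase, was at 60.4 CPM in PBS, 15 in BT WT and 24.1 in BT mutant, 4.03-fold lower in BT WT than in PBS (3.48 to 4.66). For Sqle, the oxygen-requiring squalene epoxidase, the levels were 69.7, 24.1 and 48.3 CPM. BT WT was 2.89-fold under PBS (2.56 to 3.27) and BT mutant 2.0-fold over BT WT (1.79 to 2.24). Lss, the cyclase that gives lanosterol, read 19.7, 3.39 and 7.78 CPM. Its 5.80-fold lower level in BT WT than in PBS (4.33 to 7.85) was the widest gap of the list in that comparison.

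Among the enzymes that turn lanosterol into cholesterol the order held for some and not for others. Cyp51, the lanosterol demethylase, was at 104 CPM in PBS, 18.8 in BT WT and 46.3 in BT mutant, 5.50-fold lower in BT WT than in PBS (4.86 to 6.23) and 2.46-fold higher in BT mutant than in BT WT (2.17 to 2.79). Msmo1, the methyl sterol oxidase, had the top level of the list in PBS, 178 CPM, with 47.0 in BT WT and 60.7 in BT mutant. The colonized libraries were close to each other and far below PBS: BT WT 3.8-fold (3.5 to 4.12) and BT mutant 2.94-fold. Ebp, the sterol isomerase, was at 111, 43.0 and 59.8 CPM, 2.58-fold lower in BT WT than in PBS (2.36 to 2.84). Hsd17b7, the 3-keto sterol reductase, was at 32.0, 10.2 and 13.1 CPM, 3.13-fold lower (2.60 to 3.77). Nsdhl, which works with Msmo1 in removing the methyl groups, was at 20.4, 9.90 and 18.2 CPM. BT WT stood apart, 2.06-fold under PBS, while BT mutant over PBS had an interval including 1. Tm7sf2, a sterol reductase, was at 10.8, 4.54 and 6.05 CPM, 2.38-fold lower in BT WT than in PBS. It shares a strand with the overlapping gene Vps51, which could take or give counts.

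The remaining sterol enzymes did not share that order. Lbr, the lamin B receptor, which can also act as a sterol reductase, was at 15.8 CPM in PBS, 21.2 in BT WT and 16.0 in BT mutant. Sc5d, the sterol desaturase, was at 83.5, 63.5 and 58.5 CPM, and Dhcr7, the reductase that ends a route to cholesterol, was at 25, 36.2 and 33.6 CPM. No pair of libraries reached 1.5-fold for these 3 genes, and Dhcr7 was higher in BT WT than in PBS by 1.45-fold (1.25 to 1.68).

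The sensing genes did not share a direction. Srebf2, the gene of SREBP2, was at 72.7 CPM in PBS, 54.3 in BT WT and 67.0 in BT mutant, within 1.5-fold throughout. Scap, its escort, was at 12.2, 25.6 and 22.1 CPM, 2.10-fold higher in BT WT than in PBS (1.71 to 2.60). Mbtps1, the site-1 protease, was at 19.5, 39.4 and 30.5 CPM, 2.02-fold higher (1.72 to 2.39). Both were low in PBS and higher in the colonized libraries, in a comparison where 37.3% of all genes were called higher in BT WT. Mbtps2, the site-2 protease, was scarce at 4.33, 4.87 and 5.0 CPM; it overlaps the coding gene Yy2 on its strand. Insig2 was level at 30.8, 28.4 and 33.2 CPM. Stard4, the cytosolic carrier, was at 104, 79.9 and 89.6 CPM, within 1.5-fold in all 3 comparisons.

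Insig1 did not follow the enzymes. It was at 153 CPM in PBS, 94.4 in BT WT and 51.0 in BT mutant, so the libraries ran in another order than for Hmgcs1 or Cyp51. BT WT was 1.62-fold under PBS (1.51 to 1.74), BT mutant a further 1.85-fold under BT WT (1.72 to 2.0), and BT mutant 3.0-fold under PBS (2.77 to 3.24). Insig1 made up 12% of the UMIs of Insig1 and the 20 enzymes together in PBS (11.5 to 12.6), 18.1% in BT WT (17.3 to 18.8) and 7.47% in BT mutant (7.05 to 7.90). The Insig1 difference between the colonized libraries narrowed from a log2 ratio of -0.89 to -0.47 with each cell weighted equally and to -0.24 within clusters, which is short of 1.5-fold.

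Between the colonized libraries, 11 of the 27 genes were called higher in BT mutant than in BT WT, all of them enzymes, against 13.3% of the 12220 genes tested. They were Acat2, Hmgcs1, Mvk, Mvd, Idi1, Fdps, Fdft1, Sqle, Lss, Cyp51 and Nsdhl. Insig1 was the 1 gene called lower, against 20.6% of all genes. The median log2 ratio was 0.26 over the 27 genes, 0.37 over the enzymes and -0.05 over all genes. Against PBS, BT mutant had 11 genes called lower, where 10.9% of all genes were: Hmgcs1, Mvd, Idi1, Fdft1, Lss, Cyp51, Tm7sf2, Msmo1, Hsd17b7, Ebp and Insig1. Scap (1.82-fold) and Mbtps1 (1.57-fold) were again the 2 called higher, against 23.3%. The median was -0.37 beside 0.07 over all genes. These comparisons share the PBS or BT WT library, so their directions are not independent of one another.

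The excess of BT mutant over BT WT went with the makeup of the class. Car1, a carbonic anhydrase, was among the leading genes of clusters 23, 0.1 and 2.5. Fabp2, a fatty acid binding protein, was among those of 23 and 0.1. These Car1 and Fabp2 clusters held 259 BT WT and 814 BT mutant cells and 5463146 and 14046297 of the class's 18276330 and 21980274 UMIs. In these clusters the enzymes summed to 759.8 CPM in BT WT (737 to 783) and 826 in BT mutant (812 to 842). In clusters 3, 21 and 22, which held most other colonocyte-like cells of the colonized libraries, they summed to 287 CPM in BT WT (278 to 297) and 286 in BT mutant (274 to 298). Within each pool of clusters the libraries were thus near each other, and the pools differed. The pools were formed after the data had been seen. Car1 was not particular to the clusters named for it. It was at 2387 CPM there in BT WT and 5179.9 in BT mutant, and at 2399 in clusters 9 and 0.0 of PBS. Fabp2 was at 514, 2682 and 342 CPM in the same sums. Without the Car1 and Fabp2 clusters the median over the 27 genes moved from 0.26 to -0.05. The median over all genes was -0.05 with these clusters and -0.07 without them. With clusters compared like with like the median over the 27 genes was 0.04, beside -0.01 over all genes.

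**Figure D2:**
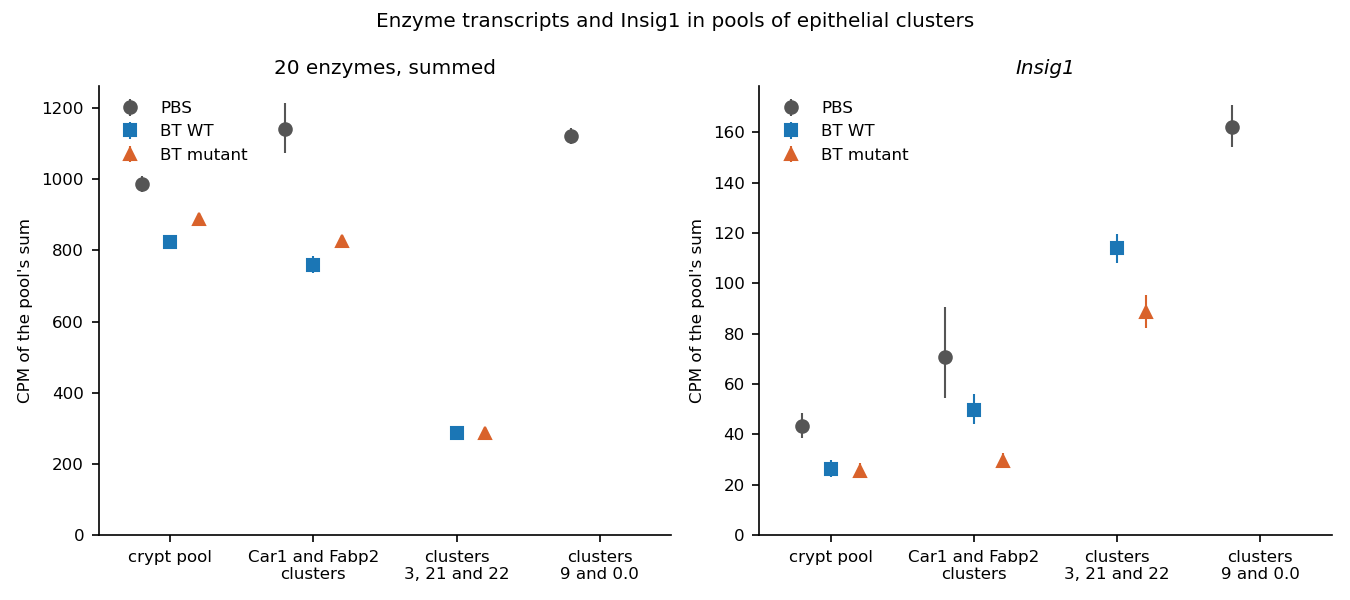
CPM of the 20 enzymes summed (left) and of Insig1 (right) in 4 pools of epithelial clusters, by library, with exact Poisson 95% intervals; clusters 3, 21 and 22 are shown for the colonized libraries, and clusters 9 and 0.0 for PBS, which held nearly all their cells. Enzyme sums lie near each other within a pool for BT WT and BT mutant (759.8 and 826, then 287 and 286 CPM), while PBS lies above both wherever they share a pool.

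Inside the Car1 and Fabp2 clusters, the median log2 ratio of BT mutant over BT WT was 0.00, beside -0.05 for all genes. Called higher were 6 of 27 genes (Acat2, Mvk, Pmvk, Fdps, Lss and Nsdhl), against 5.28% of all genes. Fdps was at 107 CPM in PBS, 46.5 in BT WT and 85.9 in BT mutant there. Insig1 alone was called lower, against 8.56%, at 70.9, 49.8 and 29.6 CPM. In clusters 3, 21 and 22, 1 of 26 genes was higher in BT mutant (Fdps, 10.9 against 6.02 CPM), against 4.64% of all genes, and 0 were lower, against 12.6%. Insig1 there was at 114 CPM in BT WT and 88.6 in BT mutant, a ratio of 0.780. Fdps was thus called higher in BT mutant in both pools, and Insig1 was lower in both and called in the Car1 and Fabp2 clusters.

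Inside the Car1 and Fabp2 clusters, where PBS had 53 cells, the gap between PBS and BT WT was smaller. Of the 888581 PBS UMIs there, 653154 came from 24 cells of cluster 23 and 31240 from 27 cells of cluster 0.1. The 2 PBS cells of cluster 2.5 had a median of 102094 UMIs. The PBS sums and calls of these clusters thus rest on few cells, which the counting intervals do not show. The enzymes summed to 1142 CPM in PBS (1073 to 1215), above both colonized libraries, but not among the shallow cells. In cells under 2000 UMIs they summed to 749.8 CPM in PBS (475 to 1125; 28 cells) and to 847 in BT WT (634 to 1108; 53 cells), with overlapping intervals, and in the deeper bins PBS had under 20 cells each. Called lower in BT WT than in PBS were 9 of 25 genes, against 7.70% of all genes: Hmgcs1, Mvd, Idi1, Fdps, Fdft1, Lss, Cyp51, Nsdhl and Hsd17b7. Acat2 (2.46-fold on 28 UMIs) and Mvk (1.59-fold on 68) passed 1.5-fold with intervals that included 1. Dhcr7 (1.76-fold) and Scap (3.30-fold) were called higher, against 7.50% of all genes. Cyp51 was at 125 CPM in PBS and 49.6 in BT WT, 2.52-fold lower. Hmgcs1 was at 168 and 96.1 CPM, 1.74-fold lower. Called lower in BT mutant than in PBS were 9 of 27 genes, against 11.0%: Hmgcs1, Mvd, Idi1, Lss, Cyp51, Msmo1, Hsd17b7, Insig1 and Stard4. Scap (2.86-fold) was the 1 called higher, against 5.54%. The medians were -0.38 for BT WT and -0.20 for BT mutant over PBS, beside 0.00 and -0.04 for all genes. Insig2 stayed level in these clusters, at 32.6, 34.6 and 38.4 CPM.

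Depth per cell moved with these pools. Median depths were 1909, 15960.0 and 12854 UMIs in the Car1 and Fabp2 clusters, 3882 and 3084 in clusters 3, 21 and 22 of BT WT and BT mutant, and 8052 in clusters 9 and 0.0 of PBS. Among cells of 2000 to under 10000 UMIs, the enzymes summed to 284 CPM in clusters 3, 21 and 22 of BT WT (2732 cells) and to 279.9 in BT mutant (1978 cells). In the same depth range they summed to 499 and 605 CPM in the Car1 and Fabp2 clusters of BT WT (40 cells) and BT mutant (157 cells), and to 654 in clusters 9 and 0.0 of PBS (93 cells). At that depth clusters 3, 21 and 22 stayed lowest (274 to 294 in BT WT and 268 to 292 in BT mutant), at narrower gaps. The intervals of the other sums overlapped: 413 to 598 and 554 to 659 in the Car1 and Fabp2 clusters, and 586 to 727 in PBS. Their order was thus not resolved at that depth. At 10000 or more UMIs the sum was 1157 CPM in clusters 9 and 0.0 of PBS (1133 to 1180.4, 244 cells). In the Car1 and Fabp2 clusters it was 771 in BT WT (747 to 795, 166 cells) and 844 in BT mutant (828 to 859.9, 454 cells). Clusters 3, 21 and 22 stood at 339 and 423 CPM (69 and 23 cells). Under 2000 UMIs clusters 9 and 0.0 of PBS (801 to 1073) overlapped the Car1 and Fabp2 clusters of BT WT (634 to 1108). Those of BT mutant (577 to 799.6) lay lower.

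Other RNA classes also differed between the colonocyte-like sums. Fat-cell markers summed to 163 CPM in PBS, 11.1 in BT WT and 21.2 in BT mutant (8, 6 and 5 of 10 genes seen, Lep and Cidea at 0 in all). PBS held a cluster of 38 fat cells, and at the 0.174% of its marker level found in colonocyte-like cells the most it would carry for any of the 27 genes is 0.470 CPM, for Pmvk. The nuclear RNAs Malat1 and Neat1 summed to 65539, 73415 and 42677 CPM, dissociation stress genes to 10586, 8583 and 11314, and Hox genes of position along the gut to 184, 321 and 186. B cell markers were at 50.4, 14.7 and 18.8 CPM. The part of these in the differences above was not tested.

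Crypts are where the epithelium divides, and the crypt pool held the enzymes at a more even level. The crypt pool joined clusters led by Wfdc2, Cftr and Aqp4 or by cycling genes such as Mki67, with 12 of 15 stem and transit-amplifying markers seen in at least 10% of cells (Lgr5, Tgfbi and Olfm4 below that), and counted 148, 231 and 352 cells. Only clusters 2.4 and 12.2 of the pool were named stem and transit-amplifying-like, and the rest were unnamed. Of these, 2.1 and 2.2 scored highest for colonocyte markers (1.14 and 0.219), so the pool is not made of dividing cells alone. The enzymes of the pool summed to 987 CPM in PBS, 824 in BT WT and 888 in BT mutant. Those of cluster 2.1 summed to 1102, 825 and 886 CPM. In BT WT 4 of 27 genes were called lower than in PBS, against 5.17% of all genes. The pool's clusters were filled unequally: 2.2, 2.3 and 2.4 had 8, 19 and 11 PBS cells, under the 20 needed for a level. The 4 genes were Lss (25, 13.9 and 16.8 CPM in PBS, BT WT and BT mutant), Hsd17b7 (29.5, 17.4 and 12.4), Acat2 (20.1, 12.8 and 18.9) and Insig1 (43.3, 26.3 and 25.5). Insig1 was at 53.9, 26.0 and 26.3 CPM in cluster 2.1 and at 24.7, 32.2 and 29.0 in cluster 2.0, so its lower class level did not hold in both. Nuclear RNAs in the pool were at 17958, 15143 and 9145 CPM and colonocyte markers at 9354, 8058 and 8029. In BT mutant 4 genes were lower than in PBS, against 10.0%: Hsd17b7, Insig1, Sc5d (38.4, 28.8 and 23.6 CPM) and Msmo1 (76.9, 57.7 and 49.5). Between BT mutant and BT WT 0 genes were lower, against 7.35%, and 0 higher, against 3.87%. Hmgcs1 (110.3, 94.0 and 81.7 CPM), Idi1 (104, 72.7 and 97.7), Sqle (57.4, 46.9 and 43.0) and Srebf2 (88.0, 87.9 and 67.2) stayed within 1.5-fold. Insig1 made up 4.21%, 3.09% and 2.79% of Insig1 and enzyme UMIs, under its share in colonocyte-like cells of the same library.

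Goblet-like cells, which secrete mucus (15 of 16 markers; 204, 867 and 147 cells), had enzyme sums of 719, 688 and 723 CPM in PBS, BT WT and BT mutant. Called lower in BT WT than in PBS were 5 of 27 genes, against 18.4% of all genes: Acat2 (18.5, 5.60 and 13.9 CPM), Lss (19.9, 9.33 and 12.1), Mvd (18.2, 9.47 and 13.9), Lbr (49.0, 28.1 and 35.1) and Idi1 (61.4, 40.6 and 41.7). Called higher were 3, against 14.7%: Insig1 (87.7, 147 and 78.0 CPM), Sc5d (25.1, 39.3 and 19.4) and Sqle (33.2, 51.1 and 39.9). Both counts lie near or under the background. BT mutant over BT WT had 3 genes lower, against 17.2% (Sc5d, Insig1 and Insig2), and 4 higher, against 19.6% (Acat2, Mvk, Tm7sf2 and Mbtps2). Hmgcs1 stood at 62, 87.5 and 97.4 CPM and Srebf2 at 76.4, 100 and 73.8. The class joins cluster 11, led by Spink4, Agr2 and Mptx1 with the hormone genes Pyy and Gcg among its top genes, and cluster 13, led by Clca1, Fcgbp and Tff3. BT WT had 79 and 788 cells of them, against 77 and 127 in PBS and 60 and 87 in BT mutant. Insig1 was at 52.1, 21.4 and 25.4 CPM in cluster 11 and at 162, 206 and 246 in cluster 13, so its high class level in BT WT went with the share of cluster 13. Other RNA moved with these levels: colonocyte markers summed to 6106, 11896 and 4286 CPM and the nuclear RNAs to 25025, 44018 and 17545, both highest in BT WT, and their part was not tested.

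**Figure D3:**
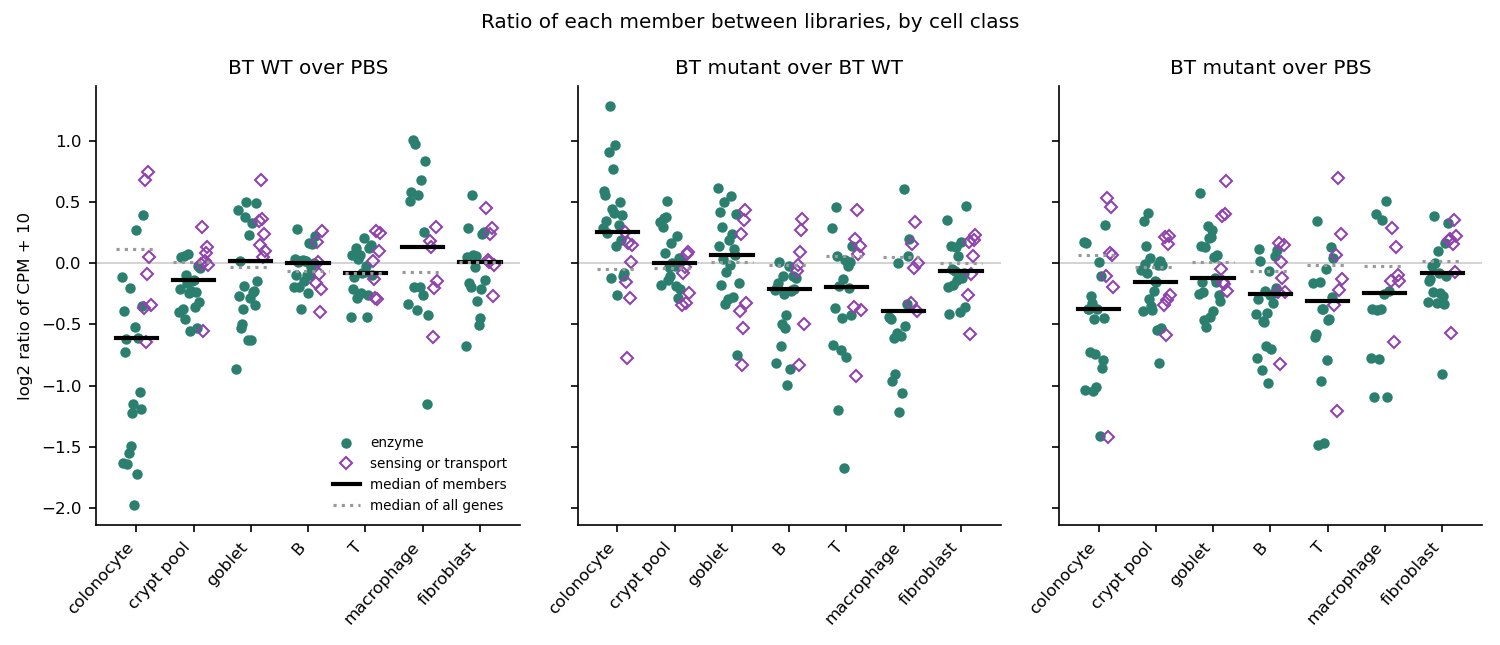
Log2 ratio of CPM + 10 for each gene with at least 20 UMIs in the 2 sums, by cell class and comparison; filled points are enzymes, open diamonds sensing genes and Stard4, black bars the median of the list and dotted bars the median of all genes. The enzymes of colonocyte-like cells lie low in BT WT over PBS (list median -0.61) and high in BT mutant over BT WT (0.26), where the immune classes lie below 0.

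In B-like cells (14 of 14 markers; 1058, 1485 and 1224 cells) PBS and BT WT were alike in these genes and BT mutant was lower. Between BT WT and PBS 0 of 25 genes were called lower, against 6.84% of all genes, and 0 higher, against 5.53%. Between BT mutant and BT WT 8 of 24 were lower, against 7.93%. Mbtps2 was called higher in BT mutant (14.2 against 8.81 CPM in BT WT), and the share of all genes called higher was not taken. Sqle was at 11.0, 9.02 and 3.15 CPM in PBS, BT WT and BT mutant, 2.86-fold lower in BT mutant than in BT WT (1.48 to 5.96). Cyp51 was at 35.0, 35.7 and 12.9 CPM (2.77-fold lower, 2.0 to 3.89), and Msmo1 at 26.7, 31.2 and 12.6 (2.48-fold, 1.78 to 3.51). Early enzymes shared this pattern: Hmgcs1 was at 27.4, 28.3 and 11.8 CPM (2.39-fold, 1.70 to 3.43) and Idi1 at 25.7, 21.2 and 9.46 (2.24-fold, 1.52 to 3.37). Insig1 went the same way here, at 43.6, 43.8 and 20.2 CPM, and Fdps and Stard4 completed the 8. Against PBS 9 of 24 genes were lower in BT mutant, against 12.8% of all genes: Acat2, Hmgcs1, Idi1, Fdps, Ggps1, Sqle, Cyp51, Msmo1 and Insig1. Srebf2 (94.2, 83.0 and 78.8 CPM), Lbr (111, 92.3 and 90.9) and Insig2 (21.3, 19.5 and 21.5) did not reach 1.5-fold.

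The B-like clusters were filled unequally: cluster 6 held 579, 672 and 215 cells (PBS, then BT WT, then BT mutant), cluster 7 held 78, 291 and 863, cluster 8 held 378, 420 and 74, and cluster 25, the smallest, held 23, 102 and 72. The enzymes summed to 409.8, 447 and 286 CPM in cluster 6, 428, 384 and 301 in cluster 7 and 468, 468 and 318 in cluster 8, so BT mutant was lowest in these 3. In cluster 25 they summed to 524, 283 and 289 CPM, level between the colonized libraries. There 0 of 12 genes differed 1.5-fold between BT mutant and BT WT (median 0.02, beside -0.07 over all genes). General epithelial markers were at 82.3 counts per 10000 in cluster 25, against 12.8, 12.8 and 10.1 in clusters 6, 7 and 8. Its median mitochondrial share was 15.2%, against 4.96%, 4.74% and 5.03%. Without cluster 25 the list median of BT mutant over BT WT in B-like cells was -0.25, beside 0.01 over all genes. With it the median was -0.21, beside -0.01. Cyp51 in BT mutant was at 0.234 of its BT WT level in cluster 6, 0.323 in cluster 7 and 0.624 in cluster 8, where the interval included 1. Colonocyte markers in B-like cells stood at 7.15%, 11.4% and 8.24% of their level in colonocyte-like cells of the library. At those shares colonocyte RNA would carry 7.40, 2.14 and 3.81 CPM of Cyp51 into B-like cells, and 10.9, 4.82 and 5.69 of Hmgcs1. For Insig1 the amounts would be 10.9, 10.7 and 4.20 CPM. The nuclear RNAs stood at 40779, 42456 and 29990.4 CPM in B-like cells, lowest in BT mutant. The part of either in the differences was not tested.

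T-like cells (16 of 16 markers; 230, 500 and 239 cells) showed 6 of 20 genes lower in BT mutant than in BT WT, against 4.69% of all genes. Cyp51 was at 45.4, 54.0 and 10.0 CPM, 5.38-fold lower (2.83 to 11.5), and Idi1 at 40.4, 31.3 and 8.03, 3.90-fold lower (1.87 to 9.40). Insig1 was at 52.5, 41.3 and 17.1 CPM, Msmo1 at 33.3, 32.7 and 15.1, Ggps1 at 44.7, 35.9 and 18.1, and Hmgcs1 at 44.7, 47.2 and 26.1. BT mutant was the low library for each. The same 6 were lower in BT mutant than in PBS, 6 of 18, against 9.24%, and 0 of 24 were lower in BT WT than in PBS, against 7.50%. Insig2 was at 8.51, 12.3 and 20.1 CPM, higher in BT mutant than in PBS on 32 UMIs. Sqle (12.1, 8.63 and 7.02 CPM) and Srebf2 (56.0, 56.8 and 42.1) were not called. Lbr was higher in T-like cells than in the other classes compared in each library, at 133, 126 and 128 CPM in PBS, BT WT and BT mutant. Cluster 16, led by Ms4a4b, Trbc2 and Il7r, held 150, 338 and 116 of these cells, a smaller part in BT mutant than in the other libraries, and its enzymes summed to 569.5, 554 and 362 CPM. In cluster 15, led by Ccl5 and Gzma (52, 106 and 66 cells), they summed to 548, 436 and 408, and in cluster 28, led by Il7r and Emb (28, 56 and 57 cells), to 496, 501 and 384. BT mutant was lowest in all 3 clusters, with intervals that overlapped those of BT WT in clusters 15 and 28. Colonocyte markers stood at 8.26%, 7.75% and 8.03% of their colonocyte-like level in T-like cells. B cell markers were at 228, 150.3 and 65.2 CPM (10 of 14 genes seen in BT mutant) and the nuclear RNAs at 36934, 32179 and 25068, both lowest in BT mutant, and their part was not tested.

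Macrophage and monocyte-like cells (14 of 15 markers; 101, 208 and 229 cells) had BT WT as the high library for several enzymes. Cyp51 was at 27.7, 50.6 and 19.1 CPM in PBS, BT WT and BT mutant, Fdps at 26.4, 61.6 and 38.2, Pmvk at 38.3, 62.3 and 27.2 and Ebp at 31.7, 64.5 and 49.2. These were the 4 of 17 genes called higher in BT WT than in PBS, against 6.49% of all genes. Sc5d (31.7, 8.80 and 9.54 CPM) and Insig1 (68.6, 41.8 and 40.4) were the 2 called lower, against 11.1%. In BT mutant 7 of 18 genes were lower than in BT WT, against 6.23%: Pmvk, Mvd (2.64, 15.4 and 6.61 CPM), Idi1 (47.5, 40.3 and 16.9), Fdps, Sqle (22.4, 18.3 and 8.81), Cyp51 and Msmo1 (29.0, 36.7 and 22.8). Hmgcs1 was at 42.2, 31.5 and 20.6 CPM and Srebf2 at 59.4, 68.9 and 52.9. Lbr was 1.63-fold higher in BT mutant than in BT WT (1.2 to 2.23). Cluster 17, led by C1qa and Retnla, had enzyme sums of 310.1, 295 and 301 CPM, and cluster 20, led by Lyz2 and Cxcl2 with the antibody genes Igha and Igkc among its top genes, had 551, 620.2 and 389. Their cell numbers were 59, 55 and 107, and 42, 153 and 122, so the makeup of the class moved with its levels. B cell markers in the class were at 206, 631 and 536 CPM (14 of 14 genes seen in each library), lowest in PBS. Colonocyte markers were at 5046, 2472 and 2787 CPM, highest in PBS, and the nuclear RNAs at 28492, 26956 and 18158. The part of these in the calls was not tested.

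**Figure D4:**
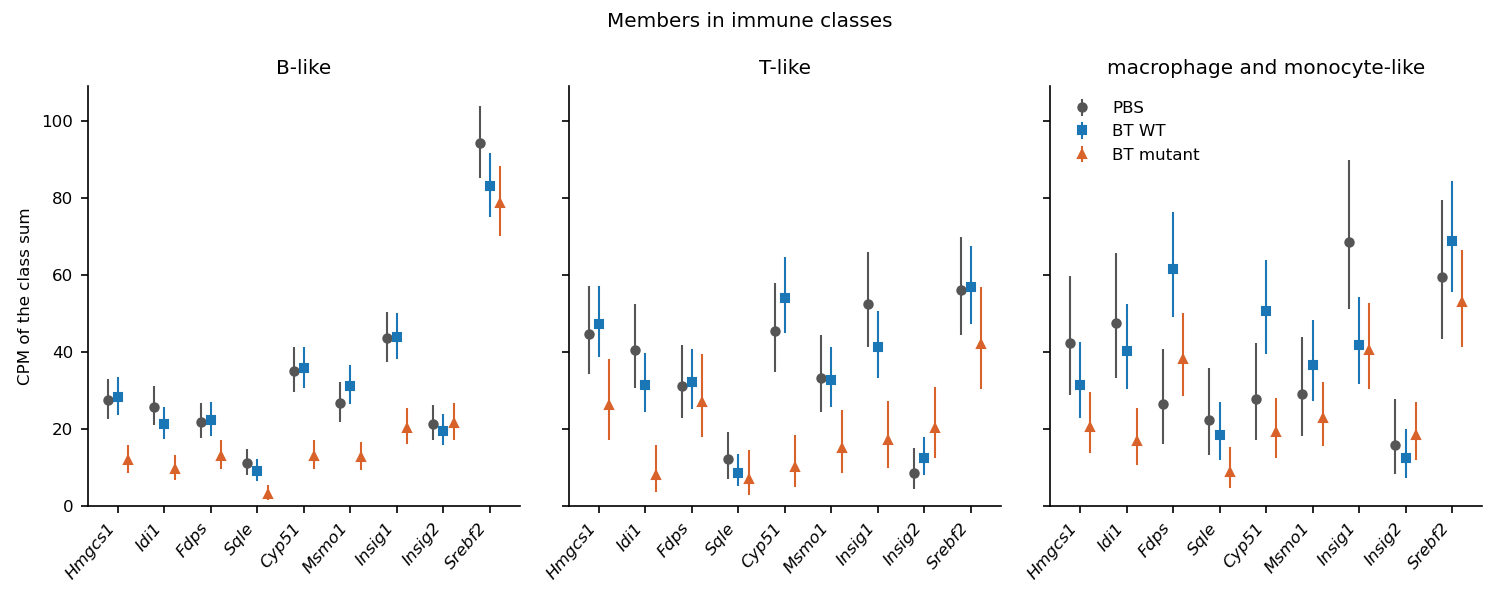
Levels of 9 of the genes in B-like, T-like and macrophage and monocyte-like cells of the 3 libraries, in CPM with exact Poisson 95% intervals. BT mutant is lowest for Hmgcs1, Idi1, Sqle, Cyp51, Msmo1, Insig1 and Srebf2 in all 3 classes, while for Fdps and Insig2 it is not. Intervals of BT mutant and BT WT overlap for Srebf2 in each class, among others. In macrophage and monocyte-like cells Insig1 is near level between them, at 40.4 and 41.8 CPM.

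Fibroblast-like cells (16 of 16 markers; 179, 227 and 463 cells) had enzyme sums of 326, 312 and 289.8 CPM. Insig1 was the 1 of 21 genes called lower in BT mutant than in BT WT, against 5.29% of all genes, at 43.1, 43.5 and 25.9 CPM (1.68-fold, 1.21 to 2.34). The class was made up differently in each library. Cluster 0.3 held 35, 14 and 98 cells, with Insig1 at 111 CPM in PBS and 8.35 in BT mutant, and in cluster 5 (124, 168 and 334 cells) Insig1 was at 34.2, 34.9 and 26.2, under 1.5-fold apart with overlapping intervals. Colonocyte markers in the class were at 4566, 3019.8 and 5673 CPM and the nuclear RNAs at 35599, 28646 and 22671, and their part was not tested. Msmo1 was at 23.4, 13.6 and 7.82 CPM, 2.99-fold lower in BT mutant than in PBS (1.74 to 5.24). Fdps was 1.94-fold higher in BT WT than in PBS (1.06 to 3.69) on 52 UMIs. Insig1 was thus called lower in BT mutant than in BT WT in colonocyte-like, goblet-like, B-like, T-like and fibroblast-like cells, and in 2 classes, the crypt pool and macrophage and monocyte-like cells, it was not. Within the 2 goblet-like clusters it was not lower in BT mutant, and within fibroblast-like cluster 5 it was not called.

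Across classes the genes differed in where they were highest. In PBS 10 of the 27 had their top level in colonocyte-like cells and 10 in the crypt pool; in BT WT the numbers were 3 and 13, and in BT mutant 4 and 11. Insig2 was highest in fibroblast-like cells of every library, at 34.7 CPM (PBS), 42.9 (BT WT) and 39.8 (BT mutant). Mbtps1 was also highest there, at 60.5 CPM (PBS), 76.2 (BT WT) and 79.9 (BT mutant). Srebf2 was highest in B-like cells in PBS (94.2 CPM) and BT mutant (78.8), and in goblet-like cells in BT WT (100).

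Genes beside the pathway were read in colonocyte-like cells from 5 lists. Of the SREBP1 and fatty acid synthesis list 10 of 17 genes were lower and 1 higher in BT WT than in PBS, with a median log2 ratio of -0.36, where 15.2% of all genes were lower and 37.3% higher (median 0.12). Scd1, a fatty acid desaturase, was at 45, 2.30 and 5.05 CPM in PBS, BT WT and BT mutant, 19.6-fold lower in BT WT than in PBS (14.3 to 27.6); it also leads the fat-cell cluster of PBS, whose part in this was not tested. Acsl3, the most abundant, was at 395, 527 and 357 CPM. Genes of LXR and sterol efflux, which respond to excess sterol, had 6 of 11 higher and 2 lower in BT WT than in PBS (median 0.87), against the same 37.3% and 15.2%. In BT mutant 5 of 11 were lower and 0 higher than in BT WT (median -0.26), against 20.6% and 13.3%. Abcg5, which exports sterols, was at 3.91, 38.6 and 6.92 CPM, 9.86-fold higher in BT WT than in PBS (7.11 to 14.0) and 5.58-fold lower in BT mutant than in BT WT (4.67 to 6.69). Smpdl3a, the most abundant of that list, was at 232, 176 and 168 CPM. For sterol storage and transport 6 of 14 were lower and 4 higher in BT WT than in PBS (median -0.05), with Scarb1, a lipoprotein receptor, at 47.8, 9.68 and 7.01 CPM and Npc2, a lysosomal sterol carrier, at 168, 94.1 and 91.8. The sterol-dependent degradation machinery had 1 of 13 lower and 3 higher (median 0.07), both shares under those of all genes: Vcp was at 204, 125 and 133 CPM and Syvn1 at 16.3, 36.8 and 20.2. In the isoprenoid branches 0 of 15 were lower and 1 higher (median 0.09), Ptar1, a prenyltransferase subunit, at 12.2 against 6.59 CPM. Nus1, of dolichol synthesis, was at 76.1, 65.2 and 88.9 CPM, near level.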

How the data were processed

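Three-prime single-cell libraries of mouse colon, 1 each for PBS, BT WT and BT mutant, were analysed from the authors' deposited UMI counts per gene and barcode. Per the file headers the count matrices came from Cell Ranger 5.0.0; per the submitters' processing notes STAR and the mm10 build were used. The annotation release is not given in the sources used here. The 27 genes and all gene lists were chosen with earlier results of these data known.

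Barcodes with at least 300 genes and at most 25% mitochondrial UMIs were kept. Counts were scaled to 10000 per cell, and cells were clustered with scanpy 1.11.5 (Python 3.11.15, numpy 2.4.6, pandas 2.3.3) on 2000 variable genes without the 27 genes, 30 components, 15 neighbours and Leiden resolution 1.0, then 0.5 for mixed clusters. Clusters were named from marker lists. Doublets were kept: an automatic caller marked 0, 3 and 103 cells and had not worked, and removal at a fixed rate was an alternative. UMIs were summed per class and library, and ratios have exact conditional binomial 95% intervals (scipy 1.17.1), checked on simulated counts; levels have exact Poisson ones. These cover counting error only, since UMIs of 1 library are not replicates. Log2 ratios used CPM + 10. The text names all 27 genes. In the other classes it names up to 5 called genes per comparison and Insig1, Sqle, Hmgcs1, Idi1 and Srebf2, and from each related list the most abundant gene and the one with the largest ratio. Classes with under 50 cells in a library (tuft-like and endothelial-like, 39 and 49 in PBS) and the unnamed clusters outside the crypt pool were left out. Alternatives changed the cell filters, scaling, weighting, depth per cell, class limits, pseudocount and UMI minimum. Promoter windows came from RefSeq and gene overlaps from the GENCODE annotation of GRCm38.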

Additional observations from a re-analysis of the deposited data

Results flagged for a closer look

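Several genes were called in opposite directions in different cell classes. Each class is a sum of 1 library, so the difference between classes was not tested.

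In BT WT over PBS, where colonocyte-like cells were lower, macrophage and monocyte-like cells were 1.63-fold higher for Pmvk, 2.33-fold for Fdps, 1.83-fold for Cyp51 and 2.04-fold for Ebp. The colonocyte-like levels of these genes were 2.01-fold, 4.01-fold, 5.50-fold and 2.58-fold lower. Fdps was also 1.94-fold higher in fibroblast-like cells. The macrophage and monocyte-like clusters differed. In cluster 20 Fdps was at 32.0 CPM in PBS and 81.4 in BT WT, and Cyp51 at 36.9 and 63.9. In cluster 17 Fdps was at 19.9 and 12.7 CPM and Cyp51 at 17.1 and 17.8. Ebp was higher in BT WT in both, at 24.6 and 72.1 CPM in cluster 20 and 39.8 and 45.8 in cluster 17. Cluster 20 held 42 PBS and 153 BT WT cells, against 59 and 55 in cluster 17. Goblet-like cells were 1.54-fold higher for Sqle, which was 2.89-fold lower in colonocyte-like cells. They were 1.57-fold higher for Sc5d, which was 3.60-fold lower in macrophage and monocyte-like cells. Insig1 was 1.67-fold higher in goblet-like cells and lower in colonocyte-like cells (1.62-fold), the crypt pool (1.65-fold) and macrophage and monocyte-like cells (1.64-fold). In goblet-like cluster 11, Sqle, Sc5d and Insig1 were lower in BT WT than in PBS. Sqle was at 27.8 CPM in PBS and 24.9 in BT WT, and Sc5d at 22.2 and 16.9, with overlapping intervals. Insig1 was at 52.1 and 21.4 CPM. In cluster 13 the same genes were higher in BT WT, Sqle at 44.4 and 63.5 CPM and Insig1 at 162 and 206. Cluster 13 held 127 PBS and 788 BT WT cells, against 77 and 79 in cluster 11.

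In BT mutant over BT WT, colonocyte-like cells were higher and immune classes lower. Hmgcs1 was 1.63-fold higher in colonocyte-like cells and 2.39-fold and 1.81-fold lower in B-like and T-like cells. Idi1 was 2.43-fold higher, and 2.24-fold, 3.90-fold and 2.39-fold lower in B-like, T-like and macrophage and monocyte-like cells. Cyp51 was 2.46-fold higher, and 2.77-fold, 5.38-fold and 2.65-fold lower in the same 3 classes. Fdps was 3.24-fold higher, and 1.73-fold and 1.61-fold lower in B-like and macrophage and monocyte-like cells. Sqle was 2.0-fold higher, and 2.86-fold and 2.08-fold lower in those 2 classes. Mvd was 1.96-fold higher and 2.33-fold lower in macrophage and monocyte-like cells. In clusters 3, 21 and 22, outside the Car1 and Fabp2 clusters, the ratio of BT mutant over BT WT was 0.795 for Hmgcs1 (0.635 to 0.991), below 1. It was 1.80 for Fdps (1.31 to 2.49), and 1.43 for Idi1, 2.22 for Mvd (19 UMIs), 1.22 for Sqle and 1.22 for Cyp51, whose intervals included 1.

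In BT mutant over PBS, Hmgcs1 was 1.57-fold higher in goblet-like cells and lower in colonocyte-like (2.21-fold), B-like (2.32-fold), T-like (1.71-fold) and macrophage and monocyte-like cells (2.05-fold).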

How the results depend on the processing

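For BT WT over PBS the median over the 27 genes in colonocyte-like cells was -0.61 and lay between -0.97 and -0.41 over 14 alternatives, with 13 to 20 genes called lower and 1 to 4 higher. It was -0.70 at a mitochondrial limit of 10%, -0.47 with no such limit, -0.71 with median-ratio scaling, -0.51 with equal weight per cell (4 genes higher), -0.70 with cells thinned to 1000 UMIs (1 higher), -0.41 over all epithelial clusters (1 higher), -0.59 with the 27 genes kept in the clustering, -0.62 with doublets removed and -0.97 with a pseudocount of 1. It was -0.58 with the unnamed PBS cluster, -0.73 without the Car1 and Fabp2 clusters and -0.60 without the shallow clusters, which were chosen after seeing the data. Leaving out the Car1 and Fabp2 clusters kept clusters 9 and 0.0 of PBS, where Car1 was at 2399 CPM, here and for BT mutant over PBS. Nsdhl turned to 0.25 in thinned cells, which left out 149, 112 and 152 cells. The median over all genes lay between 0.01 and 0.28 over these settings. Counts of called genes stand here without the share of all genes, so only the medians can be read against all genes.

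For BT mutant over BT WT the median of 0.26 lay between -0.05 and 0.36 over 15 alternatives, with 0 to 4 genes lower and 1 to 13 higher. It was 0.25 at the 10% limit (4 lower), 0.24 with no limit, 0.29 with at least 1000 genes per cell, 0.34 with median-ratio scaling, 0.14 with equal weight (0 lower, 7 higher), 0.15 in thinned cells (0 lower, 5 higher), 0.08 over all epithelial clusters (6 higher), 0.27 with doublets removed and 0.36 with a pseudocount of 1. Within clusters it was 0.04 (0 lower, 1 higher), with Hmgcs1 at -0.44, Fdft1 at -0.18 and Lss at -0.12. Without the Car1 and Fabp2 clusters it was -0.05 (0 lower, 2 higher), with Acat2 at -0.13, Hmgcs1 at -0.34, Fdft1 at -0.11, Lss at -0.18 and Nsdhl at -0.31. The last 2 settings hold fewer cells of the Car1 and Fabp2 clusters or none. Over all genes the median of this comparison lay between -0.12 and 0.00, and was -0.07 without these clusters.

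For BT mutant over PBS the median of -0.37 lay between -0.78 and -0.24 over 14 alternatives, with 7 to 19 genes lower and 0 to 4 higher. It was -0.36 at the 10% limit, -0.28 with no limit, -0.34 with at least 1000 genes per cell (1 higher), -0.45 with median-ratio scaling (1 higher), -0.47 with equal weight (4 higher), -0.62 in thinned cells, -0.24 over all epithelial clusters (7 lower, 0 higher), -0.48 with a pseudocount of 1, -0.35 with the unnamed PBS cluster and -0.78 without the Car1 and Fabp2 clusters (19 lower). Tm7sf2 turned to 0.11 at the 10% limit and 0.18 with equal weight. Medians over all genes lay between 0.00 and 0.17 for BT mutant over PBS. Over single genes, 245, 297 and 253 values of the 3 comparisons stayed within their counting interval, 122, 96 and 117 left it and 1, 8 and 2 changed sign. Where no reason is given, the cause was not tested. The setting within clusters gave no value against PBS, since no cluster held enough cells of both libraries. No paired analysis was possible because each group has 1 library. Depth limits Acat2, Mvd and Mbtps2 in colonocyte-like cells and most genes in T-like and macrophage and monocyte-like cells.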
